A study of Mus musculus with 12 samples.

Results

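The Kruppel-like factors (Klf) are zinc finger transcription factors that bind GC-rich and CACC-type DNA elements, and 10 of their genes were followed here through ischemic mouse brain: Klf2, Klf3, Klf4, Klf5, Klf6, Klf7, Klf10, Klf13, Klf15 and Klf16. They were chosen by gene symbol, and each symbol matched 1 line of the deposited table, so that the members are 10 of the 31208 genes listed. RNA came from the brains of C57BL/6 mice, male and 8 weeks old, with no engineered allele in any group, and the labels number 4 mice in each of 3 groups. Sham mice served as controls. Ischemic mice had the left middle cerebral artery blocked with a filament and had received either vehicle (saline) or lactate into a cerebral ventricle on the day before, and their brains were taken at 6 h of ischemia. The methods name D-lactate for the RNA-seq mice, while the labels give lactate without its form, and whether sham mice were injected is not given in the sources used here. The sham group therefore controls for surgery on mice of the same strain and age, and any effect of the injection itself cannot be told apart from that of ischemia in either comparison with sham. The comparisons ask which of these genes differed after ischemia with vehicle, after ischemia with lactate, and between lactate and vehicle.

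Within the family, Klf2 and Klf4 are known from vascular endothelium, where laminar flow raises them through the kinases Map2k5 and Mapk7 and the MEF2 factors, and where their products favour antithrombotic and anti-inflammatory genes. Klf9, Klf13 and Klf15 belong to the genes that glucocorticoids can induce, and Klf15 is known in brain mainly from astrocytes. Klf10 (TIEG1) and Klf6 respond quickly to growth factors, transforming growth factor beta and neuronal activity, Klf6 and Klf7 are linked to axon growth, Klf5 to epithelial and smooth muscle growth, and Klf3 and Klf16 act mainly as repressors through Ctbp and Sin3 proteins.

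Long nanopore reads of full-length cDNA gave 6815920 to 10677224 counts per mouse, and values are given as CPM, the count scaled to the total of the mouse. A level of 3 counts, taken as the floor of detection, was 0.281 to 0.440 CPM, and this floor covers counting error only. On the second principal component of all genes vehicle mouse 1 lay apart at 66.88, while the other 11 mice lay between -21.81 and 10.15. On the first, lactate mouse 2 lay at 65.16, against 15.44 to 28.86 for the other lactate-treated mice and 32.36 for the highest vehicle-treated mouse. Vehicle mouse 2 held 1817 CPM of Ttr, the main transcript of choroid plexus. Defining markers of neurons, astrocytes, oligodendrocytes and microglia were counted in every mouse. Since the tissue is bulk brain, fewer cells of a type and less RNA per cell cannot be told apart in any value below.

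Promoter sequence (RefSeq, build GRCm38.p6) was at hand for 7 members, as the 250 bases before the RefSeq start site, and is shown for the member that passed the test (Klf15) and for the other members named above as induced by glucocorticoids (Klf13) or by flow (Klf2 and Klf4). A set of 8 short motifs was searched on both strands: the GC box GGGCGG, the E-box CACGTG, the CCAAT box CCAAT, the glucocorticoid receptor core AGAACA, the cyclic AMP element core TGACG, the TATA box TATAAA, and the CArG box and the MEF2 site by their usual consensus. Capitals mark every match on either strand, and positions count the first base of a match back from the start site.
Klf15 promoter, chr6:90462326-90462575, plus strand: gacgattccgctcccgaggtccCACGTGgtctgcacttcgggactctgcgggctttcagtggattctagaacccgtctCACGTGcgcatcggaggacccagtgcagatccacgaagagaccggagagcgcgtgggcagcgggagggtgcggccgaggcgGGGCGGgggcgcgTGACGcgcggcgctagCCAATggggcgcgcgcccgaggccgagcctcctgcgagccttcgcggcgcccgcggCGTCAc
Klf13 promoter, chr7:63938916-63939165, minus strand: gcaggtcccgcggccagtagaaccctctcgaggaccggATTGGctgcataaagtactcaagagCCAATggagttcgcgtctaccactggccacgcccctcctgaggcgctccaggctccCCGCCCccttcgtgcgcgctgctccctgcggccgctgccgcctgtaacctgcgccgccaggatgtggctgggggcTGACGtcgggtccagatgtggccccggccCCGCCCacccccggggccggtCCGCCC
Klf2 promoter, chr8:72318812-72319032, plus strand, without the last 29 bases of the window, which lie inside the annotated gene: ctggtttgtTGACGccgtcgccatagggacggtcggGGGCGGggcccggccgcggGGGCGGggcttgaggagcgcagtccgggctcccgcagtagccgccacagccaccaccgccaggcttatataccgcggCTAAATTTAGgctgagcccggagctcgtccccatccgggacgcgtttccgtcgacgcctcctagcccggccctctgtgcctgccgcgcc
Klf4 promoter, chr4:55532476-55532725, minus strand: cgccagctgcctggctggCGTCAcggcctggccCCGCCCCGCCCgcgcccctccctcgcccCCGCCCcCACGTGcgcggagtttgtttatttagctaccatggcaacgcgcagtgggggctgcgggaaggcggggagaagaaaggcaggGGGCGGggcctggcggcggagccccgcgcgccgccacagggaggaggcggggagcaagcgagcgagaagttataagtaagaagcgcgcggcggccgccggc
The GC box, the element that Kruppel-like factors themselves bind, was found in all 7 of these windows, whereas 32.7% of 32851 promoter windows of the same length hold it. The G and C content of the 7 windows ran from 59.2% in Klf7 to 78.4% in Klf3, with 72.0% in Klf15, 71.6% in Klf13, 71.2% in Klf2 and 74.0% in Klf4, against a median of 52.4% over all windows. The window of Klf9, which is no member, had 59.6% and 0 GC boxes. The Klf15 window holds 2 E-boxes, at -228 and -172, a motif of 6.0% of all windows, and E-boxes were found in 3 of 7 members. The CCAAT box was found in 3 of 7 members (33.8% of all windows) and the cyclic AMP element core in 4 of 7 (17.8%). The MEF2 site was found in 1 of 7 members, Klf2 at -118, and in 2.9% of all windows. No member window holds the glucocorticoid receptor core (16.1% of all windows), the TATA box (12.4%) or the CArG box (1.5%), which says only that these letters are not in these 250 bases. In Klf4 the GC boxes at -217 and -212 share 1 base, and the windows of Klf7 and Klf3 lie wholly or partly inside the annotated genes.

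Klf15, which encodes a factor of glucose and amino acid metabolism, was the only member called in any comparison by the edgeR quasi-likelihood test at a Benjamini-Hochberg adjusted p under 0.05, and it was higher in lactate-treated ischemic brains than in sham brains. The gene lies at chr6:90462576-90475238 on the plus strand of GRCm38 (ENSMUSG00000030087). Klf15 stood at 76.2, 34.7, 63.4 and 61.7 CPM in sham mice 1 to 4. It stood at 116, 69.5, 90.5 and 97.6 CPM in vehicle-treated mice 1 to 4. It stood at 96.1, 84.4, 88.35 and 111 CPM in lactate-treated mice 1 to 4. Every lactate-treated mouse was above every sham mouse, and vehicle mouse 2 alone kept the vehicle-treated group from clearing sham mouse 1. The means were 59.0 ± 17.5 CPM in sham, 93.5 ± 19.4 CPM with vehicle and 95.03 ± 11.8 CPM with lactate (SD, n = 4 each). With lactate the log2 fold change against sham was 0.73 (SE 0.18, edgeR adjusted p = 0.0202). Over 17 alternatives it ranged from 0.55 to 0.86 with adjusted p values of 0.00293 to 0.0485, so the call held in each of them, including each mouse left out. With vehicle the log2 fold change was 0.71 (SE 0.22, edgeR unadjusted p = 0.00682, adjusted p = 0.17), which was not called. Between lactate and vehicle it was 0.00 (SE 0.17, edgeR adjusted p = 1), so that these data give no difference between the ischemic groups for this gene beyond that error. A call in one comparison with sham and not in the other is therefore not a difference between lactate and vehicle.

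Of the 5 astrocyte markers, 4 had higher means in both ischemic groups than in sham, as Klf15 had, and only Gfap was called. The summed level of 5 astrocyte markers was 5941 to 9859 CPM in sham, 9453 to 11280 CPM with vehicle and 9478 to 11260 CPM with lactate, and sham mouse 2 was the lowest sham mouse for both the sum and Klf15. Most of that sum is Aldoc, a glycolytic enzyme gene, with means of 7586 CPM in sham, 9488 CPM with vehicle and 9195 CPM with lactate and edgeR adjusted p values of 0.261 and 0.115 against sham. Gfap, the filament protein of reactive astrocytes, had means of 52.4, 159 and 283 CPM and was the 1 marker of 5 called higher in each comparison with sham, and none of the 5 was at 0 in any mouse. The other 3 were not called. The water channel gene Aqp4 had means of 15.5, 15.97 and 18.98 CPM in sham, with vehicle and with lactate, and the glutamate transporter gene Slc1a2 had 514.8, 523.9 and 545.3 CPM. The gap junction gene Gja1 went the other way, with 43.9, 41.8 and 40.6 CPM. Ttr of choroid plexus also moved with the comparison in which Klf15 was called, at 0.815 to 2.90 CPM in sham and 7.78 to 16.2 CPM with lactate (log2 fold change 3.25, SE 0.36, edgeR adjusted p = 9.50e-05), and the summed level of 3 choroid plexus markers was 0.987 to 4.22 CPM in sham, 3.37 to 1833 CPM with vehicle and 8.86 to 18.1 CPM with lactate. Of these markers Kl was at 0 in 2 mice and Folr1 in 5. In the same comparison 2 of 5 oligodendrocyte markers were called lower, Mog (-0.60, edgeR adjusted p = 0.0125) and Cnp (-0.53, adjusted p = 0.0131), as was 1 of 5 microglial markers, P2ry12 (-1.10, adjusted p = 0.00265), and 0 of 5 neuronal markers were called. The summed oligodendrocyte level was 6731 to 10720 CPM in sham and 8367 to 9432 CPM with lactate, and the microglial one 201.5 to 215.2 and 185.2 to 205.8 CPM, with overlap in both. The part of cell content in the Klf15 values was not tested. Without sham mouse 2 the Klf15 log2 fold change was 0.55 with lactate (edgeR adjusted p = 0.0195) and 0.54 with vehicle (adjusted p = 0.293). Over the 12 mice, the genes whose log2(CPM + 1) was most like that of Klf15 among 13431 genes were Slc15a4, a proton-coupled histidine and peptide transporter (r = 0.93), the integrin subunit gene Itga5 (r = 0.91) and Erp29, a protein of the endoplasmic reticulum (r = 0.90). These correlations are the highest of many, over mice that share the group differences, and are given as a description only.

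**Figure D1:**
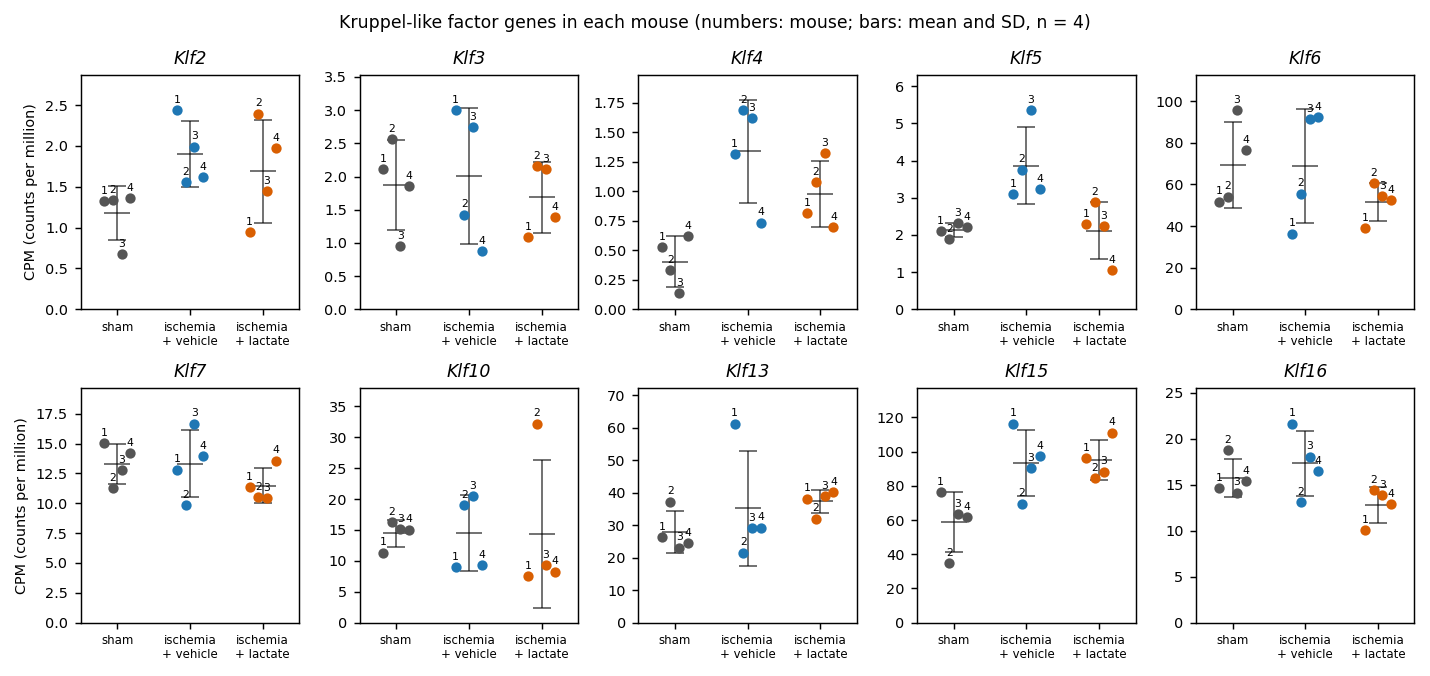
Levels of the 10 Kruppel-like factor genes in CPM (vertical axes, each from 0) in the 4 mice of each group, with the mouse number beside each point and bars for the mean and SD. Klf15 in all 4 lactate-treated mice lay above the highest sham mouse (76.2 CPM), Klf5 in all 4 vehicle-treated mice above every mouse of the other groups, and Klf10 in lactate mouse 2 (32.2 CPM) above all others.

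Klf13, a factor of the same branch as Klf9, was 26.2, 37.2, 23.1 and 24.4 CPM in sham mice 1 to 4. It was 61.2, 21.5, 29.0 and 29.2 CPM in vehicle-treated mice and 38.1, 32.0, 39.0 and 40.1 CPM in lactate-treated mice. The lactate-treated mice were close together and above 3 of the 4 sham mice, sham mouse 2 overlapping them, and the vehicle-treated group was spread by its mouse 1. The means were 27.8 ± 6.45 CPM in sham, 35.2 ± 17.7 CPM with vehicle and 37.3 ± 3.65 CPM with lactate (SD, n = 4 each). Klf13 was not called with lactate against sham (log2 fold change 0.45, SE 0.17, edgeR adjusted p = 0.0989), and the result rested on single mice and on the tool. Without sham mouse 2 the log2 fold change was 0.64 and passed (edgeR adjusted p = 0.0129), limma voom with sample quality weights gave 0.57 (adjusted p = 0.0285), and 1 fit of all 12 mice gave 0.45 (adjusted p = 0.348). With vehicle the log2 fold change was 0.38 (SE 0.29, adjusted p = 0.617) and became -0.04 without vehicle mouse 1, the mouse that lay apart over all genes. The difference of lactate from vehicle was 0.05 (SE 0.28, edgeR adjusted p = 0.975).

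Klf9, which is no member but is named above with Klf13 and Klf15 among genes that glucocorticoids can induce, was 64.4 to 74.4 CPM in sham and 104 to 120 CPM in lactate-treated brains, groups that did not overlap. Its log2 fold change with lactate against sham was 0.71 (SE 0.10, edgeR adjusted p = 8.94e-04), with adjusted p values of 0.00164 to 0.00581 when each mouse was left out and of 0.292 in 1 fit of all 12 mice. In vehicle-treated brains Klf9 was 361.7 CPM in mouse 1 and 69.2 to 91.7 CPM in the other 3, and its log2 fold change of 1.16 (edgeR adjusted p = 0.253) became 0.29 (adjusted p = 0.29) without that mouse. The glucocorticoid receptor gene Nr3c1 itself had means of 52.2 CPM in sham, 35.2 CPM with vehicle and 31.6 CPM with lactate. It was called lower with lactate (log2 fold change -0.69, SE 0.16, edgeR adjusted p = 0.0157, and 0.052 without sham mouse 1). With vehicle it was not called (-0.53, SE 0.21, edgeR adjusted p = 0.297). Between lactate and vehicle neither gene was called, with log2 fold changes of -0.18 for Nr3c1 (edgeR adjusted p = 0.86) and -0.48 for Klf9 (adjusted p = 0.777). Without vehicle mouse 1 that of Klf9 was 0.415 (edgeR adjusted p = 0.403).

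Klf2 and Klf4, the members tied to blood vessels, were low in bulk brain, and neither passed the test in any comparison in which it was tested. Klf2 was 1.32, 1.34, 0.68 and 1.36 CPM in sham mice 1 to 4. It was 2.44, 1.55, 1.99 and 1.61 CPM in vehicle-treated mice and 0.95, 2.40, 1.45 and 1.97 CPM in lactate-treated mice. Each vehicle-treated mouse was above each sham mouse, while lactate mouse 1 fell within the sham range. The log2 fold change of Klf2 was 0.73 with vehicle (SE 0.34, edgeR adjusted p = 0.373), 0.55 with lactate (SE 0.37, adjusted p = 0.368) and -0.19 between lactate and vehicle (SE 0.35, adjusted p = 0.9). Klf4 counts were 4, 3, 1 and 5 in sham mice, 14, 13, 13 and 5 in vehicle-treated mice, and 6, 9, 10 and 6 in lactate-treated mice. In CPM, Klf4 was 0.53, 0.33, 0.14 and 0.62 in sham, 1.31, 1.68, 1.62 and 0.73 with vehicle, and 0.81, 1.08, 1.32 and 0.70 with lactate. Sham mice 2 and 3 were at or under the floor, and the mice of both ischemic groups all lay above the sham mice. These counts are so low that Klf4 did not reach 1 CPM in at least 4 mice in either comparison with sham, and it was tested only between lactate and vehicle, at a log2 fold change of -0.48 (SE 0.38, edgeR adjusted p = 0.743). Fitted without the filter, its log2 fold change against sham was 1.72 with vehicle (SE 0.52, edgeR adjusted p = 0.147) and 1.21 with lactate (SE 0.53, adjusted p = 0.161).

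Vascular genes linked to Klf2 and Klf4 were followed as a list of 11. With vehicle, 9 were tested and 1 was called higher, the glucose transporter gene Slc2a1 (log2 fold change 1.33, SE 0.18, edgeR adjusted p = 0.00182), and 0 lower, where 1.29% of all genes were called higher. DESeq2 and limma each called 2 higher, Slc2a1 and Thbd. With lactate, 4 of 9 were called higher and 0 lower, by DESeq2 and limma too, where edgeR called 8.76% of all genes higher. These were Slc2a1 (1.49, SE 0.13, edgeR adjusted p = 9.19e-06), thrombomodulin Thbd (1.13, SE 0.25, adjusted p = 0.0118), endothelin Edn1 (1.40, SE 0.33, adjusted p = 0.0143) and the matrix protein gene Ccn2 (0.53, SE 0.15, adjusted p = 0.0404). As background, Klf2 is known to raise Thbd and to lower Edn1. Ccn2 lost its call in 6 of the 8 fits with a mouse left out, with an edgeR adjusted p of up to 0.112. It also lost it with library totals only (edgeR adjusted p = 0.0526), without the filter on low counts (0.0718) and in 1 fit of all 12 mice (0.213). Slc2a1, Thbd and Edn1 kept their calls in all alternatives of this comparison. With vehicle, Thbd had a log2 fold change of 1.15 (SE 0.32, edgeR adjusted p = 0.123) and was called without vehicle mouse 1 (1.39, adjusted p = 0.0106). Edn1 and Ccn2 also had positive log2 fold changes with vehicle, of 1.21 (SE 0.40, edgeR adjusted p = 0.198) and 0.85 (SE 0.26, adjusted p = 0.163). Between lactate and vehicle these were 0.18 for Edn1 (edgeR adjusted p = 0.904) and -0.335 for Ccn2 (adjusted p = 0.747). Nos3, the endothelial nitric oxide synthase gene, had a log2 fold change of -0.54 with lactate (SE 0.22, edgeR adjusted p = 0.138). Tek, on the same list, had -1.505 with vehicle (SE 0.51, edgeR adjusted p = 0.215) and -1.38 with lactate (SE 0.57, adjusted p = 0.137). Unadjusted p values of edgeR were under 0.05 for 5 of 9 with vehicle (Tek lower), against 13.8% of all genes. With lactate against sham they were so for 6 of 9 (Nos3 and Tek lower), against 27.1% of all genes. The median log2 fold change of the tested list was 0.85 with vehicle and 0.53 with lactate, against 0.00 and -0.03 over all genes tested. In each of these comparisons 6 of the 9 were above 0 and 3 below. In lactate against vehicle, 0 of 10 were called, and 0 had an unadjusted p under 0.05 by edgeR or were called by DESeq2 or limma. The summed level of 8 endothelial markers was 155.2 to 162.3 CPM in sham, 138.1 to 188.2 CPM with vehicle and 176.1 to 221.5 CPM with lactate, with 1 marker called higher (Ly6c1) and 2 lower (Tie1 and Slco1a4) with lactate against sham, and only Cdh5 at 0 counts, in 1 sham mouse. The summed level of 5 neutrophil and monocyte markers was 5.57 to 8.31 CPM in sham, 14.7 to 80.05 CPM with vehicle and 27.99 to 49.45 CPM with lactate, so every ischemic mouse lay above the sham mice, as for Klf4. Of these markers 3 were tested against sham. S100a8 and S100a9 were called higher in both comparisons and Lyz2 with lactate, while Ly6g was at 0 in 9 of the 12 mice, S100a9 in 2 and Ccr2 in 2. The summed level of 4 hemoglobin genes, the markers of red blood cells, ran the other way without overlap, at 558.8 to 631.1 CPM in sham, 332.0 to 498.7 CPM with vehicle and 374.6 to 498.4 CPM with lactate. Against sham, 4 of 4 were called lower with lactate and 0 with vehicle, but their median log2 fold change was alike, at -0.44 with each. Between lactate and vehicle it was -0.014. The part of endothelial or blood-borne cell content in the Klf2, Klf4 and vascular gene values was not tested.

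Upstream of Klf2 and Klf4, a list of 13 genes for the Map2k5 and Mapk7 kinases, MEF2 and serum response factors, SMADs, the glucocorticoid receptor and the mechanosensitive channel Piezo1 was tested in full. With vehicle against sham 0 were called, where edgeR called 1.29% of all genes higher and 0.182% lower, and DESeq2 and limma called 0 as well. An unadjusted p under 0.05 was given by 2 of the 13 (Mapk7 and Nr3c1), and by 13.8% of all genes in either direction. With lactate against sham 1 of 13 was called higher and 2 lower, where 8.76% of all genes were called higher and 3.55% lower. Smad3, a carrier of transforming growth factor beta signals, was higher (log2 fold change 0.77, SE 0.18, edgeR adjusted p = 0.0154, and 0.0534 without sham mouse 3). Mef2c, the MEF2 gene of neurons and vessels, was lower (-0.44, SE 0.11, adjusted p = 0.0191), alongside Nr3c1. Mef2c lost its call without sham mouse 1 (edgeR adjusted p = 0.0514) or sham mouse 4 (0.0567), and without vehicle mouse 1 it was called lower with vehicle too (-0.52, adjusted p = 0.0149). In 1 fit of all 12 mice the adjusted p was 0.0665 for Smad3, 0.365 for Mef2c and 0.0594 for Nr3c1. Mapk7, the kinase that activates MEF2 factors upstream of Klf2, had a log2 fold change of -0.83 with vehicle (SE 0.30, edgeR adjusted p = 0.252) and -0.94 with lactate (SE 0.34, adjusted p = 0.0871). In lactate against vehicle, 0 of 13 were called or had an unadjusted p under 0.05 by edgeR, and DESeq2 and limma called 0.

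**Figure D2:**
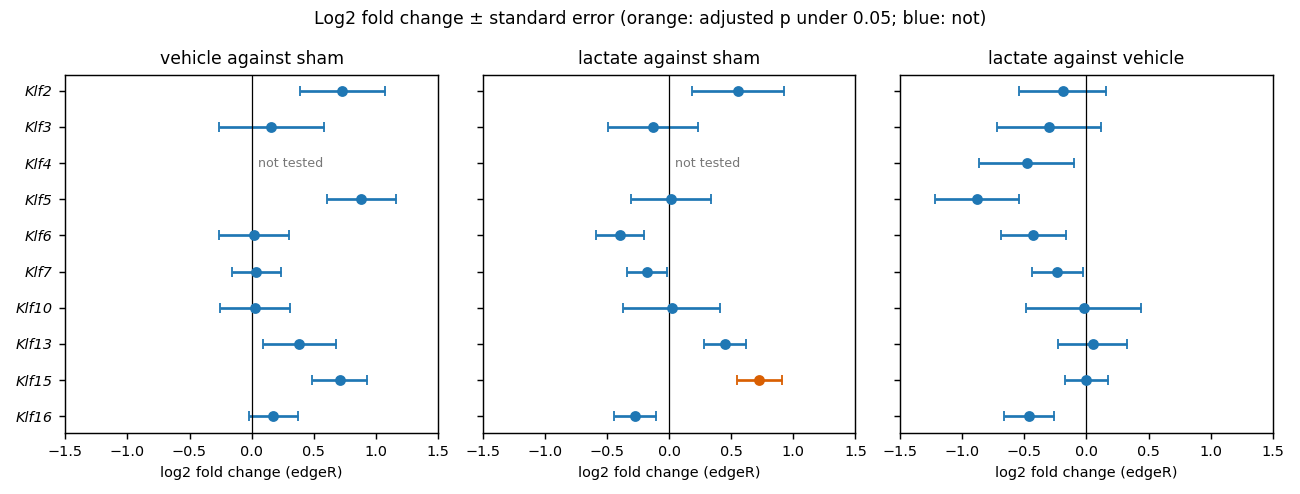
Log2 fold changes (horizontal axes) of the 10 members in the 3 comparisons by the edgeR quasi-likelihood test, with bars of 1 standard error on either side. Klf15 with lactate against sham (0.73) is the only point called at an adjusted p under 0.05, and Klf4 was not tested against sham.

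Klf5, a growth-related factor of epithelium and smooth muscle that is low in adult brain, was the member whose vehicle-treated mice stood apart from both other groups. It was 2.11, 1.89, 2.31 and 2.22 CPM in sham mice 1 to 4. It was 3.09, 3.76, 5.35 and 3.23 CPM in vehicle-treated mice and 2.30, 2.87, 2.24 and 1.04 CPM in lactate-treated mice. The means were 2.13 ± 0.179 CPM in sham, 3.86 ± 1.04 CPM with vehicle and 2.12 ± 0.769 CPM with lactate (SD, n = 4 each). No vehicle-treated mouse overlapped either other group. The log2 fold change was 0.88 with vehicle against sham (SE 0.28, edgeR unadjusted p = 0.00752, adjusted p = 0.178) and -0.88 between lactate and vehicle (SE 0.34, unadjusted p = 0.023, adjusted p = 0.524). These comparisons share the vehicle-treated mice, so they are not independent of each other. With lactate against sham it was 0.02 (SE 0.32, edgeR adjusted p = 0.982). Klf5 was called in none of the alternatives at an adjusted p under 0.05, the lowest adjusted p being 0.0854 with vehicle and 0.323 between lactate and vehicle.

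Klf10, an early response gene of transforming growth factor beta and neuronal activity, differed between mice far more than between groups. It was 11.3, 16.3, 15.1 and 15.05 CPM in sham mice 1 to 4. It was 8.99, 19.0, 20.4 and 9.24 CPM in vehicle-treated mice and 7.57, 32.2, 9.36 and 8.23 CPM in lactate-treated mice. The group means were nearly alike at 14.4 ± 2.14, 14.4 ± 6.15 and 14.3 ± 11.9 CPM (SD, n = 4 each), but vehicle mice 1 and 4 and lactate mice 1, 3 and 4 lay below every sham mouse, while vehicle mice 2 and 3 and lactate mouse 2 lay above every sham mouse. The log2 fold changes were 0.03 with vehicle (SE 0.28, edgeR adjusted p = 0.979), 0.02 with lactate (SE 0.39, adjusted p = 0.979) and -0.02 between lactate and vehicle (SE 0.46, adjusted p = 0.994). The lactate value rested on 1 mouse, since without lactate mouse 2, which also lay apart over all genes, Klf10 was called lower than in sham, at a log2 fold change of -0.76 (edgeR adjusted p = 0.0266).

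**Figure D3:**
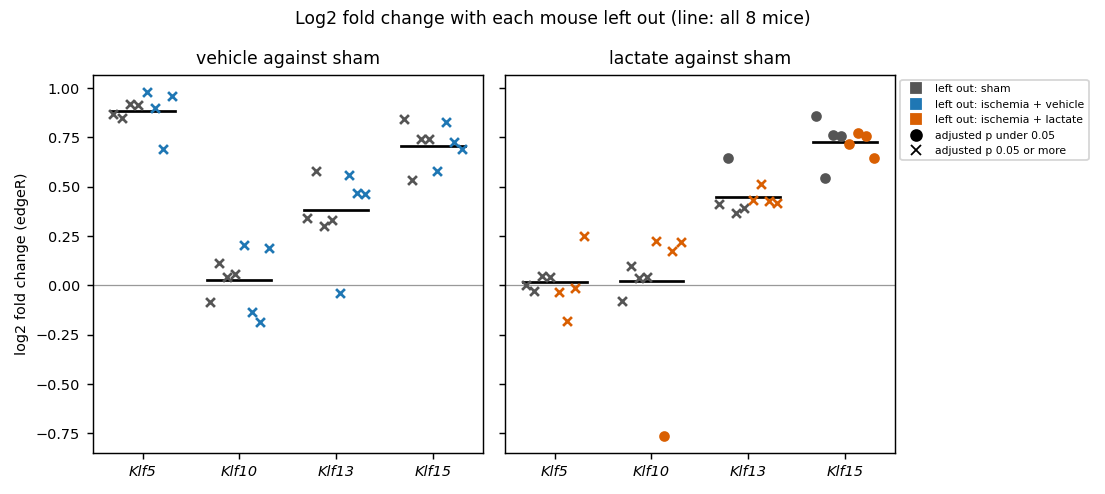
Log2 fold changes (vertical axis, edgeR) of Klf5, Klf10, Klf13 and Klf15 against sham with each mouse left out in turn, coloured by the group of that mouse, with lines for all 8 mice and filled circles for an adjusted p under 0.05. Klf15 with lactate stayed between 0.55 and 0.86 and was called in each of these fits, whereas Klf10 with lactate fell to -0.76 without lactate mouse 2.

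The same 3 ischemic mice had the highest sums of 8 immediate early genes, the first genes transcribed after neuronal activity or injury (Fos, Fosb, Junb, Egr1, Egr2, Nr4a1, Arc and Npas4). These sums were 254.4, 279.9, 359.1 and 439.2 CPM in sham mice 1 to 4. They were 139.8, 896.8, 2346 and 171.4 CPM in vehicle-treated mice and 107.4, 592.9, 104.4 and 101.0 CPM in lactate-treated mice. The ischemic mice thus fell on either side of the sham mice for the early genes, and the 5 with low sums were also the 5 with low Klf10. Over the 12 mice, Klf10 followed the sum on log2 scales with Pearson's r = 0.83 (permutation p = 0.00106, adjusted over 10 members 0.0106) and Spearman's rho = 0.90 (permutation p = 2.10e-04, adjusted 0.0021), both two-sided with 100000 resamples. Leaving out the 2 mice farthest from the median sum, vehicle mice 2 and 3, gave r = 0.91, leaving out the 3 mice with the highest sums gave r = 0.92 over 9 mice, and deviations from the group means gave r = 0.88. The permutations, here and for the other members, moved values over all 12 mice regardless of group. Their p values therefore do not test a relation within groups. Groups of 4 are too small for a correlation within each group. This relation was examined after the values had been seen, and Klf10 is itself known as an early response gene.

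None of the other 9 members had an adjusted permutation p under 0.05 for Pearson's r with the early gene sum. Klf13 ran the other way, with r = -0.59 (permutation p = 0.0442, adjusted 0.147) and rho = -0.75 (permutation p = 0.00656, adjusted 0.0328), and r = -0.62 without the 2 farthest mice. Klf5 had r = 0.71 (permutation p = 0.0102, adjusted 0.0508), which fell to 0.27 without vehicle mice 2 and 3 and therefore rests on them. Klf15 had r = -0.28 (permutation p = 0.367, adjusted 0.556) and rho = -0.55 (permutation p = 0.0698, adjusted 0.151), and its r was -0.55 without vehicle mice 2 and 3 and -0.71 without the 3 mice with the highest sums. Klf6 had r = 0.53 (permutation p = 0.0757, adjusted 0.189).

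**Figure D4:**
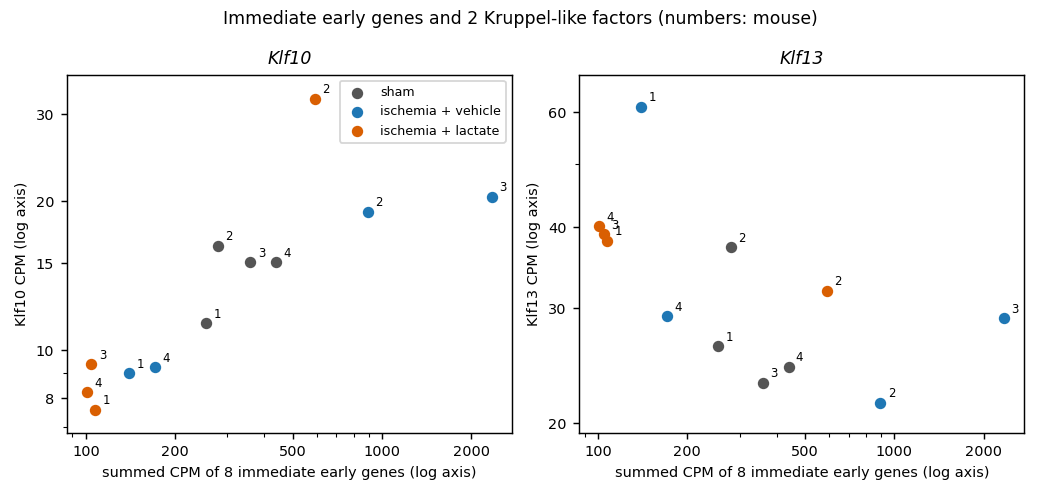
CPM of Klf10 (left) and Klf13 (right) against the summed CPM of 8 immediate early genes in the same mouse, on log axes, with the mouse number beside each point and colours for the groups. Klf10 was higher in mice with higher sums across all 3 groups (r = 0.83), with its highest value in lactate mouse 2 (32.2 CPM at a sum of 592.9) rather than at the highest sum in vehicle mouse 3 (20.4 CPM at 2346), and Klf13 was lower (r = -0.59).

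Klf6, an activator that injury and growth factors induce quickly in many tissues, was 51.7, 54.2, 95.6 and 76.3 CPM in sham mice 1 to 4. It was 36.3, 55.6, 91.2 and 92.3 CPM in vehicle-treated mice and 38.9, 60.5, 54.5 and 52.6 CPM in lactate-treated mice. All groups overlapped, with means of 69.5 ± 20.7, 68.9 ± 27.6 and 51.6 ± 9.10 CPM (SD, n = 4 each). The log2 fold changes were 0.02 with vehicle (SE 0.28, edgeR adjusted p = 0.985), -0.40 with lactate (SE 0.19, adjusted p = 0.207) and -0.43 between lactate and vehicle (SE 0.26, adjusted p = 0.662). Klf7, a factor of axon outgrowth and its closest relative here, ranged from 11.3 to 15.03 CPM in sham, 9.84 to 16.7 CPM with vehicle and 10.4 to 13.6 CPM with lactate. Its log2 fold changes were 0.04, -0.18 and -0.23 in the same order, with edgeR adjusted p values of 0.96, 0.518 and 0.763.

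The repressors Klf3 and Klf16 were not called either. Klf16 was 14.6, 18.7, 14.1 and 15.4 CPM in sham mice 1 to 4. It was 21.6, 13.1, 18.1 and 16.4 CPM in vehicle-treated mice and 10.01, 14.4, 13.85 and 12.9 CPM in lactate-treated mice. Of the lactate-treated mice, 3 lay below every sham mouse, while lactate mouse 2 was inside the range of both other groups. The log2 fold change was -0.46 between lactate and vehicle (SE 0.20, edgeR unadjusted p = 0.0432, adjusted p = 0.553), 0.17 with vehicle (SE 0.20, adjusted p = 0.76) and -0.27 with lactate against sham (SE 0.17, adjusted p = 0.332). Klf3 was 0.95 to 2.56 CPM in sham, 0.88 to 3.00 CPM with vehicle and 1.08 to 2.16 CPM with lactate, and its log2 fold changes of 0.16, -0.13 and -0.30 had edgeR adjusted p values of 0.912, 0.856 and 0.862. Of 11 co-regulators, among them the Sin3 and Ctbp corepressors and the acetyltransferases Ep300 and Crebbp, 10 were tested and edgeR called 0 in each comparison, where it called 1.29% of all genes higher and 0.182% lower with vehicle, and 8.76% higher and 3.55% lower with lactate against sham. Unadjusted p values were under 0.05 for 2 of 10 with vehicle (Sin3b and Crebbp), against 13.8% of all genes, and for 2 of 10 with lactate against sham (Sin3a and Crebbp), against 27.1%. Between lactate and vehicle they were under 0.05 for 0 of 10, against 8.84% of all genes. DESeq2 called 1 lower with lactate against sham (Crebbp), where limma called 0. Crebbp had a log2 fold change of -0.57 with vehicle (SE 0.20, edgeR adjusted p = 0.226) and -0.54 with lactate (SE 0.18, adjusted p = 0.0675), and in the lactate comparison edgeR without the filter on low counts called it lower (-0.59, adjusted p = 0.0454).

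Counted over the members, calls were few. With vehicle against sham, edgeR called 0 of the 9 members tested in either direction, where it called 1.29% of 17019 genes higher and 0.182% lower, and DESeq2 and limma called 0. A looser rule was an unadjusted p below 0.05 with a 1.5-fold change or more. The study's methods give these 2 limits just after a Benjamini and Hochberg adjustment, without naming the p as adjusted. The looser rule therefore takes over the limits and may not be the rule of the study. By this looser rule 2 members were higher (Klf5 and Klf15), as were 6.5% of all genes. All 9 had a log2 fold change above 0, at a median of 0.17 against 0.00 over all genes, although Klf6 and Klf10 turned below 0 when library totals alone were used for scaling. Of the tested members, 2 (Klf2 and Klf5) had vehicle-treated mice wholly above the sham mice, as had 4.14% of all genes tested.

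With lactate against sham, edgeR called 1 of 9 members higher (Klf15) and 0 lower, where 8.76% of 17262 genes were called higher and 3.55% lower. This share of members is near that of all genes and is no result about the family. The looser rule gave Klf15 alone as well, with 11.9% of all genes higher, and 1 tested member (Klf15) had groups that did not overlap, against 10.4% of all genes. The median log2 fold change of the members was 0.02 against -0.03 over all genes, with 5 members above 0 and 4 below. By unadjusted p, 2 of 9 (Klf13 and Klf15) were under 0.05, against 27.1% of all genes.

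Between lactate and vehicle, edgeR called 0 of 10 members, with 0% of 17419 genes called higher and 0.00574% lower, which is 1 gene, and DESeq2 and limma called 0 members. Unadjusted p values were under 0.05 for 2 of 10 members, Klf5 and Klf16, and for 8.84% of all genes. The looser rule gave 1 lower member, Klf5, and 2.47% of all genes lower, and Klf5 was also the 1 member whose lactate-treated mice all lay below the vehicle-treated mice, as had 1.83% of all genes. The median log2 fold change of the members was -0.27 against -0.03 over all genes, with 8 of 10 below 0, Klf13 above 0 and Klf15 at 0.00.

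Some mice were the highest of their group for several members. Vehicle mouse 1 was the highest vehicle-treated mouse for 5 of 10 members (Klf2, Klf3, Klf13, Klf15 and Klf16), and lactate mouse 2 the highest lactate-treated mouse for 6 of 10 (Klf2, Klf3, Klf5, Klf6, Klf10 and Klf16). Sham mouse 2 was the highest sham mouse for 4 of 10. Vehicle mouse 1 and lactate mouse 2 also lay apart over all genes. The same count was not made over all genes, so these counts are no result about the members. Of the other 16 genes of the Klf and Sp family, 6 were high enough to be tested (Klf9, Klf12 and Sp1 to Sp4), and only Klf9 was called, with lactate against sham. Klf1, Klf14 and Klf17, known from red blood cells, fat and germ cells, had 0 counts in 6, 4 and 10 of the 12 mice. Annotated genes overlap Klf3, Klf7 and Klf13 on the same or the opposite strand, and whether reads were counted by strand is not given in the sources used here.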

How the data were processed

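Brain RNA of 12 mice was analysed, grouped and numbered as in the labels. The authors made the deposited counts from long nanopore cDNA reads, which they filtered for length and quality, cleared of ribosomal RNA, mapped with minimap2 and polished with pinfish. The genome build is GRCm38 in the submitters' processing notes, and the annotation and the way of counting per gene are not given in the sources used here. In the deposited table the authors also give each count as CPM, scaled to the total of its mouse, and these values differed from a recomputation by at most 4.75e-06. The table also holds P values and fold changes of the authors' own comparisons, which were not used. Lines that hold no gene, 4 in all, were left out, and 0 per-sample columns were unused.

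Groups were compared in R 4.3.3 with the quasi-likelihood test of edgeR 4.0.16 (TMM, genes kept at 1 CPM or more in 4 or more of 8 mice, 2 groups in each fit, Benjamini-Hochberg adjustment over all genes tested), called at an adjusted p under 0.05. The looser rule was an unadjusted p below 0.05 with a 1.5-fold change or more. Its limits are those in the study's methods, which state them after a Benjamini and Hochberg adjustment of the p values. The study may therefore have applied them to adjusted p values. Standard errors were derived from the F statistic. The fit was tested on simulated data. Of 100 genes changed there by a log2 fold of 1, it called 39 with vehicle against sham, 54 with lactate against sham and 41 between lactate and vehicle. Of 100 changed by a log2 fold of 2, it called 84, 96 and 84. A gene that was not called may therefore still have changed by that much. The adjusted p values in the text are those of edgeR unless DESeq2 or limma is named. Alternatives were DESeq2 1.42.0, limma 3.58.1, other scalings and filters, 1 fit of all mice, only Ensembl genes, a replicate block, a looser rule and leaving out each mouse. Named genes were all members, and of the lists those called in any comparison, with all other list and marker genes named after their values had been seen. The members and lists were chosen with earlier results of these data known. Positions are from GENCODE on GRCm38. Other steps ran in Python 3.11.15 (scipy 1.17.1, pandas 2.3.3, numpy 2.4.6, and for figures matplotlib 3.10.9).

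Mice with the same number in different groups are different animals, and replicates of a group were checked for duplicates, of which none was found. Where nothing in the labels says how the samples of a group were collected, p values measure the spread between these samples.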

Additional observations from a re-analysis of the deposited data

Results flagged for a closer look

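Of 30 sets of 4 mice (10 members in 3 groups), 2 held a mouse far from the other 3, with gaps to the nearest mouse of 0.944 and 0.927 of the whole range (Klf2 and Klf10), and chance alone gives about 1 in 20 sets. Klf2 was 0.679 CPM in sham mouse 3, the lowest sham value, while the other 3 sham mice lay between 1.32 and 1.36 CPM. Klf10 was 32.21 CPM in lactate mouse 2, the highest value of any mouse, while the other 3 lactate-treated mice lay between 7.57 and 9.36 CPM. The immediate early gene sum was 592.9 CPM in that mouse and 101.0 to 107.4 CPM in the other 3, and the part of this in the Klf10 value was not tested.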

How the results depend on the processing

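Klf15 with lactate against sham kept its direction and its call in 17 of 17 alternatives. With the replicate block, numbers shared by different animals, Klf15 with vehicle against sham was called as well (log2 fold change 0.73, adjusted p = 0.0409), so that 1 member was called, and 19 genes were called lower. Correlations of same-numbered mice over all genes ran from -0.148 to 0.158. Log2 fold changes of some members that were not called turned sign, and the cause was not tested. With library totals alone, Klf6 was -0.014 and Klf10 -0.005 with vehicle, and Klf5 -0.015 and Klf10 -0.005 with lactate. With the replicate block, Klf6 was -0.028 and Klf10 -0.042 with vehicle, and Klf5 -0.022 and Klf10 -0.214 with lactate. With limma and lactate against sham, Klf3 was 0.059, Klf5 -0.162 and Klf10 -0.423, and 2 members were called higher. Without a filter, Klf5 was -0.036 and Klf10 -0.039 with lactate, and Klf15 -0.023 between lactate and vehicle. With Ensembl genes only, Klf10 was 0.027 between lactate and vehicle.

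Called genes numbered 399 higher and 77 lower with vehicle by DESeq2, 341 and 54 by limma, and 1107 and 513 by the looser rule (unadjusted p and fold change), which gave 2 members. With lactate against sham, 325 were called lower in 1 fit of all mice, 667 higher and 332 lower among Ensembl genes only, and 976 lower by the looser rule. Between lactate and vehicle there were 53 higher and 9 lower by DESeq2, and 655 and 430 by the looser rule, with 1 member lower. In the same comparison 1 gene was higher by limma, 1 without a filter, 1 among Ensembl genes only, and 1 with 0 lower in the fit of all mice.

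Leaving out each mouse gave 106 to 357 genes higher and 8 to 76 lower with vehicle, 1013 to 1522 higher and 307 to 586 lower with lactate (members 1 to 2 higher and 0 to 1 lower), and 0 to 1 higher and 0 to 4 lower between lactate and vehicle. The largest counts with vehicle came without vehicle mouse 1 and the smallest without sham mouse 3. Log2 fold changes of members that turned sign ranged with vehicle from -0.116 to 0.389 (Klf3), -0.149 to 0.231 (Klf6), -0.082 to 0.162 (Klf7), -0.183 to 0.203 (Klf10) and -0.037 to 0.581 (Klf13). With lactate against sham they ranged from -0.344 to 0.080 (Klf3), -0.182 to 0.250 (Klf5) and -0.761 to 0.227 (Klf10). Between lactate and vehicle they ranged from -0.793 to 0.186 (Klf10), -0.126 to 0.480 (Klf13) and -0.118 to 0.136 (Klf15). Klf4, at 1 to 14 counts per mouse, is limited by depth.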
